A study of Drosophila melanogaster with 32 samples.

Results

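After knockdown of M1BP, 552 places in the genome of Kc167 cells carried a peak of Mod(mdg4) in both knockdown peak lists and in neither mock list. Kc167 is a cell line derived from Drosophila melanogaster embryos, and the labels give its sex as female. The 552 gained sites were chosen by merging the peaks of the 4 Mod(mdg4) lists that overlapped by at least 1 bp, which gave 7135 sites, and keeping those with that pattern. They make up 7.74% of the merged sites. For comparison, 2420 sites had a peak in all 4 lists and are called retained, and 104 had a peak in both mock lists and in neither knockdown list.

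Mod(mdg4) is a BTB-domain chromatin protein. At the gypsy insulator of Drosophila it is brought to DNA by Su(Hw), a zinc finger protein that binds a defined sequence element, and it acts there together with CP190, a BTB and zinc finger protein found at most classes of fly insulators. Insulators are DNA elements that can block an enhancer from acting on a promoter. M1BP recognises Motif 1, a sequence element of many constitutively active promoters, through its zinc fingers. The study asked where these proteins overlap and whether the insulator proteins depend on M1BP, or M1BP on CP190.

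The data were ChIP-seq peak lists, in 2 replicates per group. For M1BPKD, Kc167 cells were given 20 µg of dsRNA directed at M1BP and harvested 5 days later, and Cp190KD cells had 12 µg directed at Cp190. They were set against cells labelled mock and, for Cp190KD, against a second set labelled mock2, and the labels do not say what a mock cell received. Mod(mdg4) and Su(Hw) were profiled in M1BPKD and mock cells, and CP190 and M1BP in all 4 kinds of cells. The labels do not say whether replicates were separate cultures, so each p-value measures only the spread between these lists. The depth of the libraries is unknown, because the lists hold peaks and no read totals. The targeted protein gave fewer peaks in M1BPKD cells, with 1776 and 1699 M1BP peaks, against 2980 and 2781 in mock cells. The Mod(mdg4) lists were longer in M1BPKD cells, with 5575 and 4862 peaks, against 2999 and 3664 in mock cells. How many gained sites there were in lists of one length is given with the peak values.

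Gained sites were weak Mod(mdg4) peaks. These values chose the sites and are given as a description. Fold enrichment, the authors' value of ChIP over control for each peak, had a median of 2.85 at gained sites in M1BPKD replicate 1, with a lowest value of 1.41 and a highest of 9.85. In M1BPKD replicate 2 the median was 2.53, the lowest 1.42 and the highest 10.3. Retained sites had medians of 7.84 and 6.03 in the same knockdown lists. Ranked by fold within its list, from 0 for the weakest peak to 100 for the strongest, the median gained site stood at 36.4 and 28.1 in the knockdown lists, and the median retained site at 78.0 and 74.4. The median width was 297 bp for gained sites and 766 bp for retained sites.

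The number of sites with the gained pattern differed with list length and with the peak threshold. When each knockdown list was cut to its 2999 peaks of highest -log10 q, the length of the shortest list, it still held 166 of the 552 gained sites (30.1%) in replicate 1 and 217 (39.3%) in replicate 2. With all 4 lists cut to that length, 159 sites had the gained pattern, and 245 did when every peak had to reach a -log10 q of 10. A further 398 sites missed the rule by a peak in 1 mock list, which was mock replicate 2 at 365 of them. Their mock peak had a -log10 q between 1.71 and 23.98. Another 2880 sites had a peak in only 1 knockdown list and in no mock list, so the gained sites are the smaller, replicated share of the sites that appeared in M1BPKD lists. Of the 552 gained sites, 42 lay within 1000 bp of a site with a mock Mod(mdg4) peak.

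The weakest gained sites by their lower -log10 q show where the rule ends. The site near CG43210, at chr3R:18568771-18569042, had a -log10 q of 7.20 in M1BPKD replicate 1 and 1.303 in replicate 2. At chr3L:5678903-5679147, inside CG46320 and sif, the values were 2.91 and 1.303, and Su(Hw) had a peak there in all 4 of its lists. The third, at chr3R:2448851-2449024 inside Myo81F, had 8.41 and 1.42 and no other antibody. Just outside the rule lay the site at the end of ATPsynC, the gene of an ATP synthase subunit, at chr3R:31219477-31219842. Its Mod(mdg4) fold was 3.85 and 2.91 in the knockdown lists and 2.04 in mock replicate 2, with a mock -log10 q of 1.71 and no peak in mock replicate 1. CP190 and M1BP had peaks there in all 4 of their M1BPKD and mock lists. The next sites outside, near kek2 and lncRNA:CR45410, had mock -log10 q values of 1.924 and 1.998, and Su(Hw) had peaks in all 4 lists at both.

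**Figure D1:**
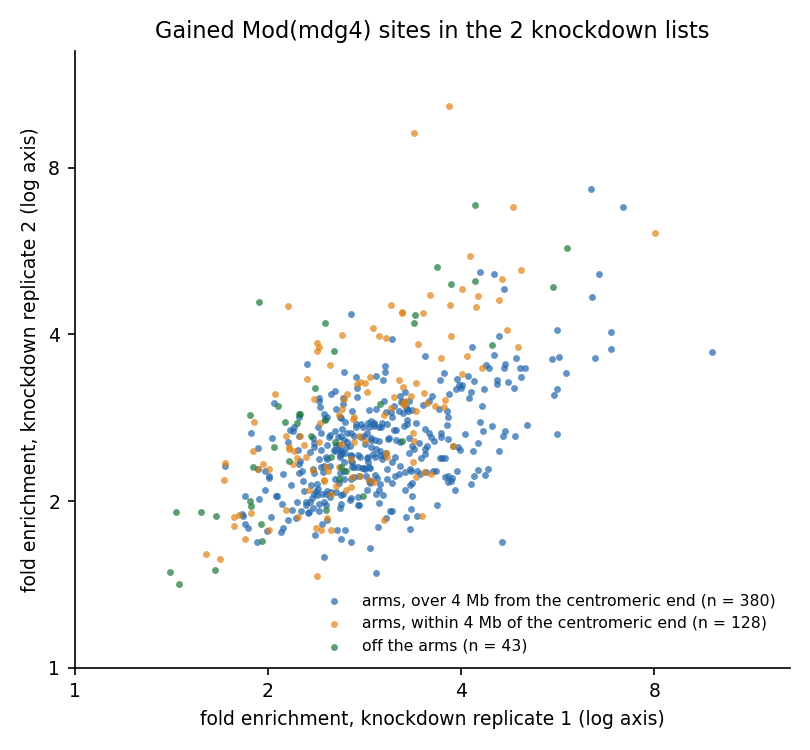
Fold enrichment of the gained Mod(mdg4) sites in M1BPKD replicate 1 (x axis, log scale) and M1BPKD replicate 2 (y axis, log scale), 1 point per site, coloured by position; the single site on arm 4 is not drawn. Of 552 sites, 366 lie between 2 and 4 on both axes, and the sites within 4 Mb of a centromeric end include the 2 highest values of replicate 2.

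Across the gained sites the log2 fold of the knockdown replicates had a Pearson r of 0.563 and a Spearman rho of 0.506 (552 sites, which share their 2 libraries, as a description). Within replicate 1 the median fold was 2.76 at the sites near centromeres, against 2.89 at the 380 gained sites farther out on the arms. Within replicate 2 it was 2.80 near centromeres, against 2.48 farther out. The values chose the sites, so no test was made.

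Su(Hw), the DNA-binding partner, marked up to 36.4% of the gained sites in knockdown cells and fewer in mock cells. Su(Hw) peaks covered 201 of the 552 sites (36.4%, 95% Wilson interval 32.5 to 40.5%) in M1BPKD replicate 1 and 187 (33.9%, 30.1 to 37.9%) in replicate 2. In mock cells they covered 92 (16.7%, 13.8 to 20.0%) and 94 (17.0%, 14.1 to 20.4%). Both knockdown lists were above both mock lists. The mean was 35.1 ± 1.79% in M1BPKD cells and 16.9 ± 0.256% in mock cells (SD, n = 2 lists each), a difference of 18.3 percentage points, with p = 0.333 by the exact two-sided permutation test. That is the smallest p which 2 lists against 2 can give, so no comparison of lists here can pass 0.05. Retained Mod(mdg4) sites had a Su(Hw) peak at 97.7 and 97.3% in M1BPKD cells and 96.0 and 96.0% in mock cells. The direction was not particular to the gained sites. At the 2880 sites in 1 knockdown list and no mock list, Su(Hw) covered 17.6 and 15.6% in M1BPKD cells, against 8.40 and 8.58% in mock cells.

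The Su(Hw) lists were themselves longer after the knockdown, with 5577 and 5324 peaks in M1BPKD cells, against 4579 and 4544 in mock cells. With the 4 Su(Hw) lists cut to one length, 28.8 and 28.3% of the gained sites had a Su(Hw) peak in M1BPKD cells, against 16.5 and 17.0% in mock cells. The difference was then 11.8 percentage points (exact permutation p = 0.333). It was 9.69 percentage points for sites chosen without the Mod(mdg4) list of M1BPKD replicate 1 with all 4 Su(Hw) lists kept, 10.4 when summits had to lie within 100 bp and 7.66 when 50% of each peak had to overlap, with the same p.

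Site by site, 79 of the 552 gained Mod(mdg4) sites had Su(Hw) in all 4 lists, 71 had it in both M1BPKD lists and no mock list, and 66 in another combination. At the 2880 sites in 1 knockdown list and no mock list, the same counts were 214, 148 and 177. Su(Hw) peaks in the knockdown lists alone were thus not particular to the gained sites. The reverse pattern, Su(Hw) in both mock lists and no knockdown list, occurred at 0 of 552 sites. That allows a share of up to 0.543% (3 counts of 552, for counting error only), or 0.691% by the Wilson interval. No Su(Hw) peak at all was found at 336 gained sites (60.9%). Of the 216 members that overlapped a merged Su(Hw) site, 56 (25.9%) lay on a Su(Hw) site that was itself gained, where 9.56% of all 5783 merged Su(Hw) sites were gained. Lost Su(Hw) sites underlay 0 of the 216, with 0.311% of all Su(Hw) sites lost. Those 56 are 10.1% of the 553 gained Su(Hw) sites, of which 337 (60.9%) overlapped no Mod(mdg4) peak in any list. Where both proteins had a peak, the median distance between the Mod(mdg4) summit and the Su(Hw) summit in knockdown lists was between 41 and 68 bp, depending on the Su(Hw) pattern and the list. The required overlap itself limits this distance, at sites with median widths of 288 to 341 bp, and no reference distance was taken.

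CP190 differed in the same direction. CP190 peaks covered 30.6 and 26.6% of the gained sites in M1BPKD cells, against 19.6 and 19.9% in mock cells. At the 2880 sites in 1 knockdown list and no mock list they covered 21.3 and 19.3%, against 17.2 and 17.5%. At the gained sites the means were 28.6 ± 2.82% in M1BPKD cells and 19.8 ± 0.256% in mock cells (SD, n = 2 lists each). The difference was 8.88 percentage points, and the exact permutation test gave p = 0.333. For sites chosen without the Mod(mdg4) list of M1BPKD replicate 1, with all 4 CP190 lists kept, the difference was 3.57 percentage points. It was 5.10 with 50% of each peak overlapping and 5.74 with summits within 100 bp. At a -log10 q of 10 it was 20.2 for CP190 and 19.4 for Su(Hw), where with all peaks the CP190 difference was the smaller. CP190 lists had similar lengths, at 8094 and 7696 peaks in M1BPKD cells and 7831 and 7796 in mock cells. CP190 was present in all 4 lists at 88 gained sites, in both knockdown lists alone at 31, in both mock lists alone at 2, and in no list at 366 (66.3%). A gained CP190 site underlay 26 of the 186 members that overlapped a merged CP190 site (13.98%), where 3.58% of all 8852 merged CP190 sites were gained. A lost CP190 site underlay 2 of the 186 (1.08%), where 3.45% of all CP190 sites were lost.

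The patterns of the 2 partners were also counted together. At 12 gained sites both had peaks in both knockdown lists and no mock list, of 71 such sites for Su(Hw) and 31 for CP190. At 30 both had peaks in all 4 lists, of 79 for Su(Hw) and 88 for CP190. At 283 neither had a peak, of 336 without Su(Hw) and 366 without CP190. Whether these overlaps exceed those of unlinked patterns was not tested. Among the 79 sites with Su(Hw) in all 4 lists, 10 had CP190 in the knockdown lists only.

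M1BP, the depleted promoter protein, was rare at gained and at retained sites. Its peaks covered 27 and 25 of 552 sites in M1BPKD cells (4.89 and 4.53%), against 28 and 27 in mock cells (5.07 and 4.89%). At retained sites the shares were 2.07 and 2.36% in M1BPKD cells, against 4.17 and 3.76% in mock cells. At gained sites the groups share the value of 4.89%, and the difference was -0.272 percentage points (exact permutation p = 0.667). That sign is not fixed, since it was positive, at 1.36 percentage points, with the M1BP lists cut to one length. At 9 gained sites M1BP had peaks in both mock lists and no knockdown list, and 501 (90.8%) had no M1BP peak in those 4 lists. Of the 51 members at a merged M1BP site, 6 (11.8%) were at a site that lost M1BP, where 26.9% of all 3321 merged M1BP sites did. M1BP sites with peaks in all 4 lists underlay 18 of the 51 (35.3%, against 44.2% of all M1BP sites), and gained M1BP sites underlay 2 (3.92%, against 0.843%).

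The second experiment, in which Cp190 was the target, covered the gained sites with fewer CP190 peaks in knockdown cells. CP190 was found at 7.07 and 7.43% of them in Cp190KD cells, against 23.9 and 22.3% in mock2 cells. Retained sites also had fewer, at 33.35 and 36.78% in Cp190KD cells, against 96.57 and 96.28% in mock2 cells. At gained sites the difference was -15.9 percentage points (exact permutation p = 0.333), or -33.9 at a -log10 q of 10. The CP190 lists held 2031 and 2150 peaks in Cp190KD cells and 8443 and 8197 in mock2 cells. M1BP was found at 7.61 and 7.25% of the gained sites in Cp190KD cells, and at 6.34 and 4.89% in mock2 cells. At retained sites M1BP was found at 3.47 and 3.47% in Cp190KD cells, and at 4.88 and 3.84% in mock2 cells.

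**Figure D2:**
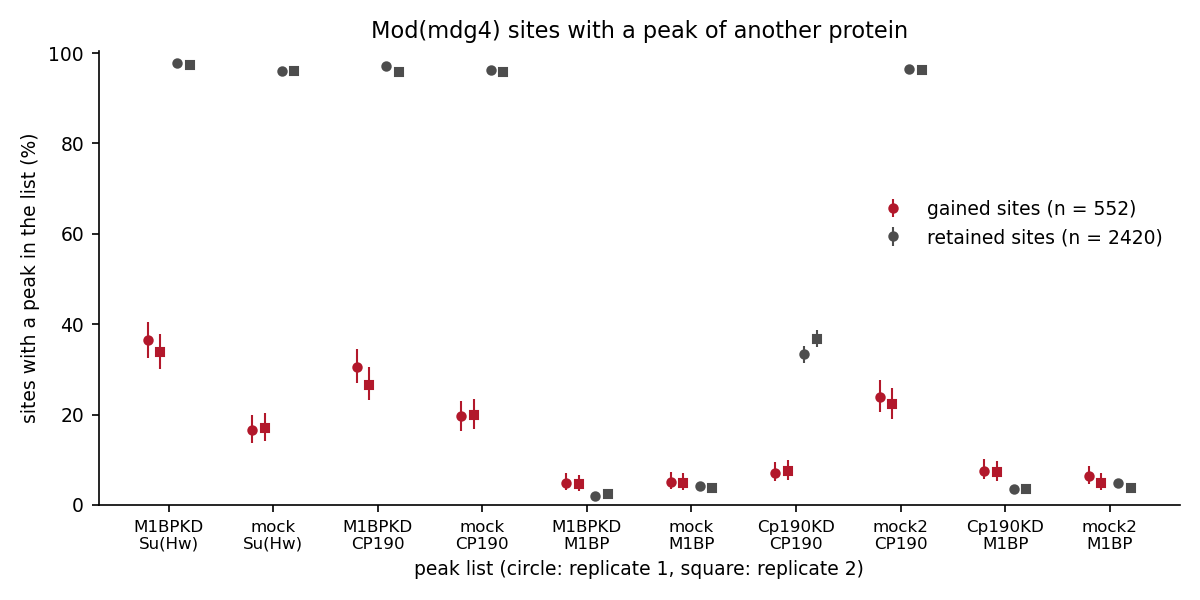
Share of Mod(mdg4) sites with a peak in each of the 20 lists of other antibodies (y axis, percent), for 552 gained sites (red) and 2420 retained sites (grey), with circles for replicate 1 and squares for replicate 2; bars are 95% Wilson intervals. Gained sites reach 36.4% in the M1BPKD Su(Hw) lists and 17.0% in the mock Su(Hw) lists, while retained sites stay above 95% in the Su(Hw) lists and in all CP190 lists other than those of Cp190KD cells.

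Where a partner was bound in every list, its median rank at the gained Mod(mdg4) sites was higher in both knockdown lists than in both mock lists. Ranks were taken by fold among the partner's sites with a peak in all 4 of its lists, so each list ranked the same partner sites. At 105 gained sites on such a Su(Hw) site, which are 48.6% of the 216 members at any Su(Hw) site, the median Su(Hw) rank was 48.9 and 50.2 in M1BPKD cells, against 41.5 and 38.9 in mock cells. Of all merged Su(Hw) sites, 72.2% had peaks in all 4 lists. The mean difference was 9.42 rank points (exact permutation p = 0.333). It was 1.87 at 31 sites chosen from Mod(mdg4) lists of equal length, with 50.1 and 47.9 in M1BPKD cells, against 47.0 and 47.2 in mock cells. With all 4 Su(Hw) lists kept, it was 4.97 for sites chosen without the Mod(mdg4) list of M1BPKD replicate 1 and 4.33 without that of replicate 2. At retained Mod(mdg4) sites on such a Su(Hw) site the median rank was 62.5 and 63.7 in M1BPKD cells and 64.0 and 63.8 in mock cells.

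CP190 ranks differed in the same direction. At 107 gained sites on a CP190 site with peaks in all 4 lists (57.5% of the 186 members at a CP190 site, where 74.6% of all CP190 sites were of that kind) the median CP190 rank was 49.3 and 50.4 in M1BPKD cells, against 41.3 and 35.9 in mock cells. The mean difference was 11.3 rank points (exact permutation p = 0.333). It was 12.9 at 49 sites from Mod(mdg4) lists of equal length. With all 4 CP190 lists kept, it was 10.2 for sites chosen without the Mod(mdg4) list of M1BPKD replicate 1 and 1.74 for the 589 sites without that of replicate 2, at which the median rank was 61.3 and 61.4 in M1BPKD cells, against 59.14 and 60.04 in mock cells. The ranks were also taken without partner sites that touch another Mod(mdg4) site. The differences were then 11.9 rank points for Su(Hw) at 61 sites and 12.4 for CP190 at 83 sites. These alternatives were chosen after seeing the data.

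**Figure D3:**
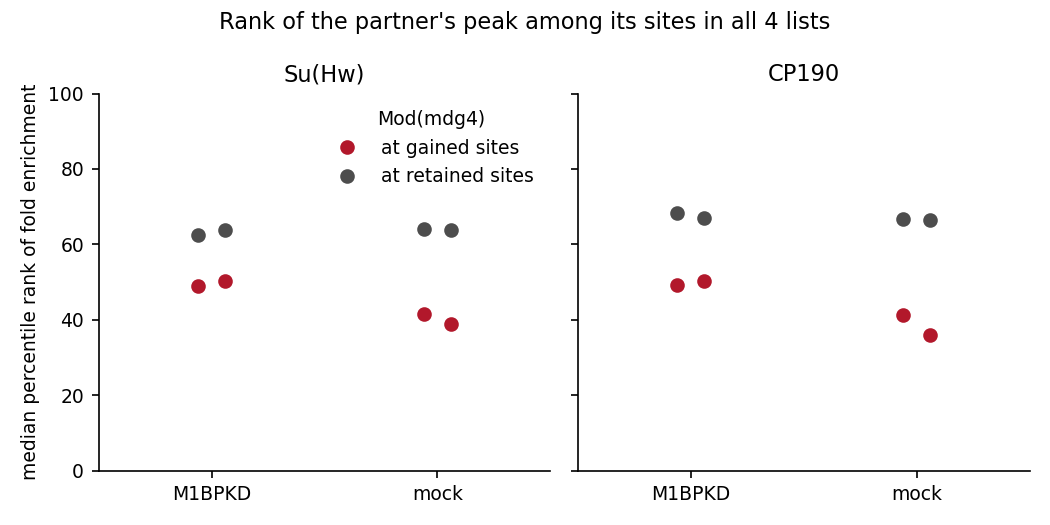
Median percentile rank (y axis, 0 weakest to 100 strongest) of the Su(Hw) peak (left) and the CP190 peak (right) at gained (red) and retained (grey) Mod(mdg4) sites, 1 point per list, with M1BPKD lists left of mock lists. At gained sites the M1BPKD points lie near 50 and the mock points between 35.9 and 41.5, while the retained points lie between 62.5 and 68.2.

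Among Su(Hw) sites with peaks in all 4 lists, those with the lowest mock ranks more often carried a gained Mod(mdg4) site alone. They also more often carried no Mod(mdg4) site in any list. A partner site that also touched a Mod(mdg4) site of another class was not counted as gained here. That left 61 Su(Hw) sites, with median mock ranks of 31.39 and 28.25, against 41.5 and 38.9 at all 105 gained sites. How far this exclusion shaped the order of the bins was not tested. The Su(Hw) sites were split into 5 equal bins of mock rank. In the lowest bin 21 of 835 Su(Hw) sites (2.51%) were counted as gained and 157 (18.8%) as retained. In the highest bin the numbers were 7 of 835 (0.838%) gained and 584 (69.9%) retained. No Mod(mdg4) site was present at 442 (52.9%) of the lowest bin and at 106 (12.7%) of the highest. A retained site cannot be gained, so the gained share of a bin is limited by its retained share. The gained share is therefore not read as a preference for weak Su(Hw) sites. CP190 sites did not follow that order throughout, and 83 of them were counted as gained in the same way. The shares were 2.12, 1.52, 0.455, 0.606 and 1.59% from the lowest bin to the highest.

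By position the gained sites fell into an arm set, a centromere-proximal set and a set off the arms. On the large arms of X and of chromosomes 2 and 3, 380 gained sites (68.8%) lay more than 4 Mb from the centromeric end and 128 (23.2%) within 4 Mb of it. Retained sites were within 4 Mb in 98 of 2420 cases (4.05%). Arm 4 held 1 gained site, and 43 (7.79%) lay on sequences off the arms, against 7 retained sites (0.289%). The window of 4 Mb was chosen after the positions were seen. With a window of 2 Mb it held 13.2% of the gained and 0.9504% of the retained sites.

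Arm 3R carried most of the centromere-proximal sites. It held 169 of the 552 gained sites, of which 65 lay in its first 4 Mb, where there was 1 retained site. The first 2 Mb held 33 gained and 0 retained sites. On X the nearest 2 Mb held 21 gained and 13 retained sites, and on 2L 9 gained and 2 retained. Farther out, the gained sites were spread along the arms, with a median of 95.7 kb to the nearest other gained site and 14.8 kb to the nearest retained site. In the proximal set those distances were 24.6 kb and 422.5 kb.

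**Figure D4:**
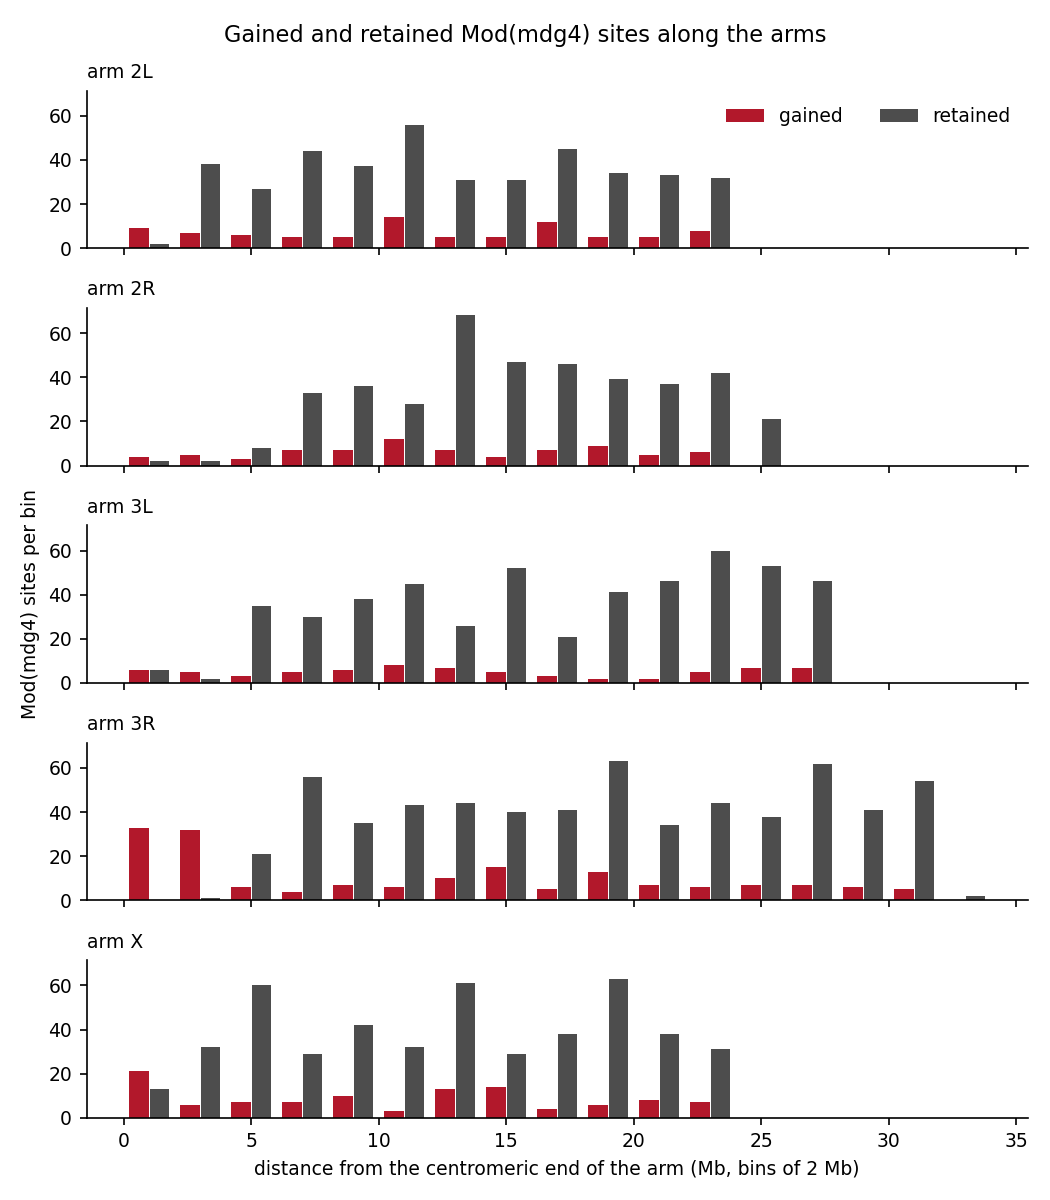
Number of gained (red) and retained (grey) Mod(mdg4) sites per bin of 2 Mb (y axis) by distance from the centromeric end of each arm (x axis, Mb). The first 2 bins of arm 3R hold 33 and 32 gained sites against 0 and 1 retained, and in every bin beyond 6 Mb that holds such sites the retained outnumber the gained.

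Such proximal peaks were more frequent in the Mod(mdg4) lists of M1BPKD cells than in any other list. Peaks within 4 Mb of a centromeric end made up 8.41 and 16.1% of the Mod(mdg4) lists in M1BPKD cells, against 4.80 and 4.80% in mock cells. In the 20 lists of other antibodies the share was between 4.34 and 6.79%. In the first 4 Mb of 3R there were 132 and 291 Mod(mdg4) peaks in M1BPKD cells, against 5 and 6 in mock cells, and 1 to 10 in each of the other lists. The replicates differed, and the share of gained sites that were proximal was 14.8% when the rule used M1BPKD replicate 1 alone and 35.9% when it used M1BPKD replicate 2 alone. It was 4.90% at the stricter -log10 q of 10 and 7.55% with lists of equal length, and the part of list length and of weak peaks in this set was not tested. Sites in 1 knockdown list and no mock list were proximal at nearly the same share, 24.7%.

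Myo81F, the gene of an unconventional myosin in the centromere-proximal part of 3R, held 39 gained sites and 1 retained site. The gene is 1965857 bp long and so spans much of that region, and its count was not scaled by length. At 30 of the 39 no list of another antibody had a peak. Its strongest gained site, at chr3R:1091679-1091957, had a Mod(mdg4) fold of 3.83 and 10.3 in the knockdown lists, the latter the highest among gained sites in replicate 2. A site at chr3R:2329730-2330296 in the same gene had folds of 4.96 and 5.23, with M1BP peaks of 2.85 and 4.05 in M1BPKD cells and none in mock cells. Next along 3R, Pzl, a gene of 709421 bp which encodes a Piezo-like protein, held 9 gained sites and 0 retained. Its sites at chr3R:3097724-3098131 and chr3R:3033492-3033774 had folds of 3.38 and 9.22 and of 4.63 and 5.04. Near the base of X, the site nearest to CG40813 at chrX:22091301-22091543 had folds of 8.02 and 6.09 and a Su(Hw) peak in M1BPKD replicate 1 alone. The site nearest to CG41562, at chrX:22280173-22280639, had folds of 4.81 and 6.79, with a Su(Hw) and an M1BP peak in M1BPKD replicate 1 alone.

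Partners were scarce in the centromere-proximal set. Su(Hw) covered 13 and 10 of its 128 sites in M1BPKD cells and 2 and 2 in mock cells, and CP190 covered 8 and 7 in M1BPKD cells and 6 and 6 in mock cells. In the distal set Su(Hw) covered 187 and 174 of 380 sites in M1BPKD cells, against 87 and 92 in mock cells, and CP190 covered 161 and 140, against 102 and 104. No list of any other antibody had a peak at 120 of the 380 distal sites (31.6%), 93 of the 128 proximal sites (72.7%) and 33 of the 43 off the arms (76.7%). Over all gained sites that was 247 of 552 (44.7%), against 27 of 2420 retained sites (1.12%). Among sites in 1 knockdown list and no mock list it was 62.3%.

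**Figure D5:**
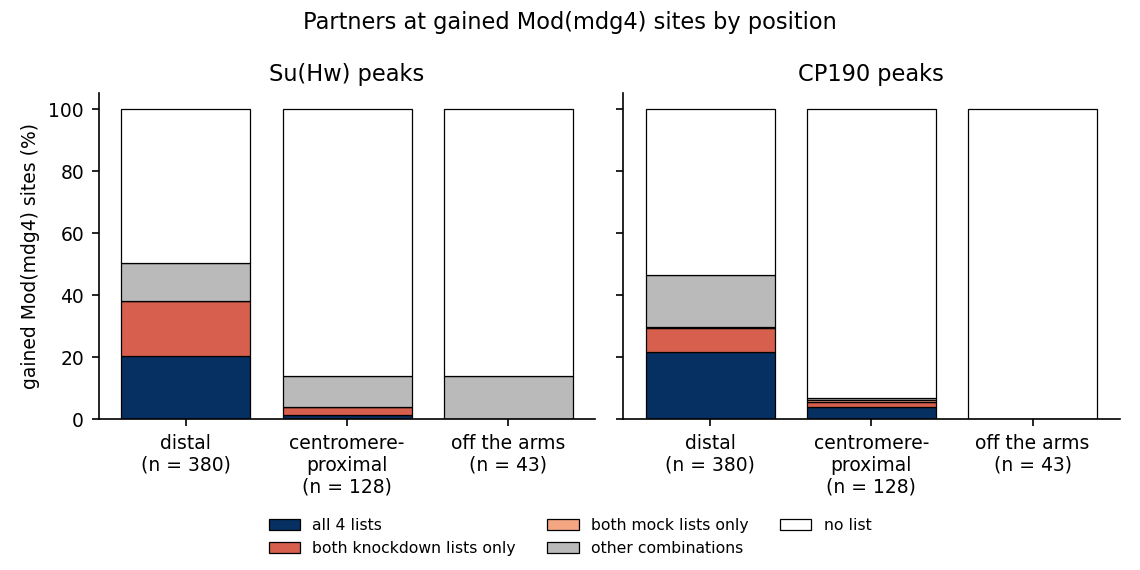
Share of gained Mod(mdg4) sites (y axis, percent) by the pattern of Su(Hw) peaks (left) and CP190 peaks (right) over the 4 lists of each protein, for 380 distal sites, 128 within 4 Mb of a centromeric end and 43 off the arms. The white part, no peak, is 49.5% of the distal Su(Hw) bar and over 85% of the other 2 Su(Hw) bars, and the CP190 bar off the arms is empty.

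Off the arms, 24 gained sites lay on 22 unplaced sequences, 15 on 13 sequences placed on X without a position, and 4 on Y. The mitochondrial sequence held none. The Y site at chrY:200623-200882 had a Mod(mdg4) fold of 5.84 and 5.73 in M1BPKD cells and no peak of another antibody, and the labels give the cells as female. On the unplaced sequence Un_DS483562v1 the site at positions 599 to 924 had folds of 4.20 and 6.86, and Su(Hw) peaks in replicate 1 of both M1BPKD and mock cells. That sequence held 2 gained sites, as did Un_DS483906v1, X_DS483971v1_random and X_DS484088v1_random. Su(Hw) covered 1 and 3 of the 43 off-arm sites in M1BPKD cells and 3 and 0 in mock cells, and CP190 covered 0 in each of these lists, which allows a share of up to 6.98% (3 counts of 43, for counting error only).

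Relative to genes, most gained sites on the arms were inside genes. Of 509, 294 (57.8%) lay inside a gene, 155 (30.5%) between genes and 60 (11.8%) at a gene end, meaning that the summit was at most 250 bp from the start or stop coordinate of some gene. For retained sites these shares were 52.6, 31.0 and 16.4% of 2413. The order of the gene-end shares was not fixed. It turned to 20.5% of gained and 16.8% of retained sites with lists of equal length, and to 23.0 and 16.5% without M1BPKD replicate 2, and without M1BPKD replicate 1 it was 7.37 and 16.4%. CP190 was in both M1BPKD lists at 24 of the 60 gene-end sites and in both mock lists at 19, and M1BP in both M1BPKD lists at 9 and in both mock lists at 12. At the 294 sites inside genes M1BP was in both M1BPKD lists at 6 (2.04%) and in both mock lists at 10 (3.40%). Su(Hw) was in both M1BPKD lists at 18 of the 60 gene-end sites and in both mock lists at 4.

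The strongest gene-end site joined all 3 partners. It lay at chr3L:16051755-16052304 beside Mbs, which encodes the regulatory subunit of myosin phosphatase, with a Mod(mdg4) fold of 7.15 and 6.78 in M1BPKD cells. Su(Hw) had folds of 6.55 and 6.38 there in M1BPKD cells and no peak in mock cells. CP190 had folds of 22.3 and 26.3 in M1BPKD cells, against 33.8 and 24.5 in mock cells. M1BP had folds of 6.48 and 10.3 in M1BPKD cells, against 22.5 and 12.8 in mock cells. These folds are not scaled between libraries, so their sizes are not compared across lists.

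At CG11672, chr3R:8290104-8290624, Mod(mdg4) had folds of 6.39 and 4.66, and both Su(Hw) and CP190 had peaks in M1BPKD lists only. Within the lists of the same experiment that pattern also held at GNBP-like3, named for its likeness to a pattern recognition protein, where Mod(mdg4) had folds of 4.42 and 3.48. At wit, the gene of a type II BMP receptor, Mod(mdg4) folds were 3.93 and 3.19, and M1BP had no peak in M1BPKD cells, against peaks of 7.92 and 4.90 in mock cells.

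Of the 12 gene-end sites with the highest mean fold, 5 had no peak of any other antibody. They lay at E23, an ecdysone-induced ABC transporter gene, with Mod(mdg4) folds of 6.85 and 4.04, and at sog, which encodes a BMP antagonist, with 5.59 and 3.10. The others were at peb, a zinc finger transcription factor gene, with folds of 4.84 and 3.20, at Thor, which encodes the translation repressor 4E-BP, with 3.97 and 3.25, and at lncRNA:CR44867, with 4.51 and 3.68. In contrast CG15200 had Su(Hw) and CP190 in all 4 lists of each, with Mod(mdg4) folds of 4.51 and 5.14. At CG43056 Su(Hw) had peaks of 28.4 and 25.2 in M1BPKD cells and of 26.3 and 19.7 in mock cells, beside Mod(mdg4) folds of 4.55 and 3.31.

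Away from gene ends, Tlk, the gene of the Tousled-like kinase, held the gained site with the highest fold in M1BPKD replicate 1, at chrX:3748841-3749144. Its folds were 9.85 in replicate 1 and 3.72 in replicate 2, and no other antibody had a peak. Tlk held 4 gained sites in all and 0 retained, and at 2 of the other three CP190 had peaks in all 4 lists. Muc12Ea, a mucin-like gene, had folds of 6.38 and 7.32, and CHES-1-like, a forkhead factor gene, had 6.48 and 3.62, both without another antibody.

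At psq, which encodes the BTB-domain factor Pipsqueak, the site chr2R:10568568-10569124 had Mod(mdg4) folds of 6.55 and 5.13. Su(Hw) was there at 5.42 and 6.11 and CP190 at 2.81 and 3.29 in M1BPKD cells, with neither in mock cells of the same experiment. Close to Wnt4, a Wnt ligand gene, Mod(mdg4) had folds of 6.84 and 3.77 and Su(Hw) of 5.57 and 5.09 in M1BPKD lists only, where CP190 had 12.3 and 9.59 in M1BPKD cells and 5.76 and 6.27 in mock cells. Inside FMRFa, a neuropeptide gene, Mod(mdg4) had folds of 5.64 and 4.07 and Su(Hw) had peaks in M1BPKD lists only.

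Several distal genes held more than 1 gained site, and they were picked out after their values were seen. Dpp10, a gene of the dipeptidyl peptidase family, held 4 beside 7 retained sites, and each of the 4 had another antibody's peak. bun, of the TSC-22 family of regulators, held 4 beside 1 retained, and kis, a chromatin remodeler gene, and tou, another chromatin gene, held 3 each. The ecdysone-induced transcription factor genes Eip74EF and Eip75B and the insulin receptor gene InR held 2 each.

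Each gene group held at most 4 of the gained sites, and the shares of genes lay on both sides of that over all genes. Over all 17684 genes on the arms, 310 (1.75%) held a gained site inside or within 250 bp, and 1225 (6.93%) a retained one. Of 16 insulator protein genes 1 (6.25%) held a gained site and 1 (6.25%) a retained one. The gained site was in Trl, which encodes the GAGA factor, with folds of 4.87 and 3.62 and no other antibody. Among 12 homeotic complex genes Ubx alone (8.33%) held a gained site, with folds of 3.06 and 2.90, and 2 (16.7%) held retained sites. Of 54 homeodomain genes 4 (7.41%) held a gained site, inv, mirr, hth and Lim1, and 5 (9.26%) held retained sites. At mirr Su(Hw) had peaks of 4.35 and 5.88 in M1BPKD lists only. These shares rest on 1, 1 and 4 genes and were not tested.

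Of 215 chemosensory receptor and ppk genes 1 (0.465%) held a gained site, Ir41a, an ionotropic receptor gene. Of 143 cuticle and Osiris genes 1 (0.699%) did, Cpr23B, and of 88 ribosomal protein genes 1 (1.14%) did, RpL23A. The RpL23A site had Mod(mdg4) folds of 3.70 and 2.39, with CP190 at 22.7 and 26.2 in M1BPKD cells and 25.0 and 25.1 in mock cells. The 126 histone genes and the 295 tRNA genes held none. Retained sites were at 13 of the cuticle genes (9.09%), 8 of the chemosensory genes (3.72%) and 0 of the ribosomal protein genes. They were at 1 of the histone genes (0.794%) and 6 of the tRNA genes (2.03%).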

How the data were processed

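ChIP-seq peak lists of 24 libraries were used, and the 8 input libraries, which came with no list, were not used here. The submitters' processing notes name MACS2 2.2.5, Picard 2.20.2, SAMtools 1.9 and Bowtie2 2.3.5, with no order or options. The authors called peaks for each library on its own. The deposited fold enrichment is a ratio of ChIP over control, unscaled between libraries, and was used only to describe and rank peaks within a list. The deposited -log10 p and -log10 q are those of the authors' peak caller, and the deposited score was not used. The other deposited value is the summit's distance in bp from the peak start.

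The labels name no genome build, and the sequence names are those of dm6. Positions are printed as deposited. Gene names and gene ends came from a RefSeq gene table of Release 6, which has no strand. No genome sequence was used, so no site sequence is shown and the planned motif search was not run.

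Merging, overlap and ranking were done in Python 3.11.15 with pandas 2.3.3 and scipy 1.17.1, and the steps recovered the known classes of simulated lists. A peak of another antibody counted at a site from 1 bp of overlap. The centromeric end is the low coordinate of 2R and 3R and the high coordinate of 2L, 3L and X. Shares have 95% Wilson intervals, which cover counting error only. Shares and median ranks of M1BPKD and mock lists were compared by exact two-sided permutation over the 4 lists.

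The members and gene lists were chosen with earlier results of these data known. Named sites are the 12 at gene ends and the 12 elsewhere with the highest mean fold, the 3 weakest, the 3 just outside the rule, up to 4 per gene list, and the sequences off the arms with most sites. One gene-end site of these is not reported here. The alternatives were a stricter threshold, lists of equal length, other overlaps and windows, and leaving out each list.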

Additional observations from a re-analysis of the deposited data

How the results depend on the processing

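The deviations of same-numbered lists from their group means had low correlations (-0.0144 for Mod(mdg4), 0.0773 for Su(Hw), 0.0826 for CP190 and 0.166 for M1BP). The labels do not say whether they share chromatin, and the lists were not paired. With a replicate block, the Su(Hw) share difference was 18.3 percentage points, and the exact sign-flip permutation test gave p = 0.5 for each share and rank difference, the smallest it can give.

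The number of gained sites was 245 with -log10 q of 10 or more, 159 with lists of equal length and 585 to 2230 when 1 list was left out. The off-arm share was 1.22% with the stricter threshold, 1.89% with equal lengths and 3.72 to 9.14% with 1 list left out. The centromere-proximal share was 4.90 and 7.55% under those 2 settings, 18.5% with 50% of each peak overlapping, 18.2% with summits within 100 bp, and 14.8 to 35.9% with 1 list left out. The gene-end share was 20.5% with equal lengths, 18.1% in a window of 500 bp, 5.50% in one of 100 bp and 7.37 to 23.0% with 1 list left out. The M1BP difference turned positive with 50% overlap (0.378 percentage points), with summits within 100 bp (0.273) and with M1BP lists of equal length (1.36). It ran between -5.09 and 0.0554 with every list of 1 mock or M1BPKD replicate left out. With only 1 Mod(mdg4) list left out and all 4 M1BP lists kept, it ran between -5.27 and 0. The Su(Hw), CP190 and rank differences kept their sign under all the alternatives run for them, and the Su(Hw) share difference was smallest with 50% overlap, at 7.66 percentage points. The rank differences were smallest at 1.87 for Su(Hw), with lists of equal length, and at 0.545 for CP190, without every list of M1BPKD replicate 2. In such settings an arm has 1 list. The restriction to distal sites, the centromere-proximal share, the equal lengths of the other antibody's lists, the ranks with equal lengths, the choice of sites without 1 Mod(mdg4) list while other lists were kept, and the ranks without other Mod(mdg4) sites were chosen after seeing the data. The cause of these shifts was not tested. Without read totals, a missing peak cannot be told apart from a shallow library.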
